A study of Mus musculus with 2 samples.

Results

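Smooth muscle of the artery wall contracts and signals through Ca2+ that enters across the plasma membrane or is released from the sarcoplasmic reticulum (SR), and 10 genes that move Ca2+ across these membranes were examined in mouse mesenteric artery. They encode the release channels of the SR (Ryr2, Ryr3, Itpr1, Itpr2 and Itpr3), the pump that refills it (Atp2a2) with its inhibitor phospholamban (Pln), and the transporters that push Ca2+ out of the cell (Atp2b1, Atp2b4 and Slc8a1). They were taken by name from the 55573 genes listed in the deposited read counts and FPKM values, and all 10 were found. RNA-seq libraries were made from mesenteric arteries of 10 weeks old, wild type C57BL/6 mice, 1 library from arteries in 5 mM K+ (control) and 1 from arteries in 60 mM K+, a solution that depolarizes the membrane. Each library was a pool of tissue from 2 mice, and by the supplementary methods described below both pools may hold tissue of the same mice. By the labels and the main text of the study, arteries spent 60 min in either solution. The supplementary methods, by contrast, describe control tissue as the distal part of a ligated arterial bed, taken off before perfusion with high K+, so that K+, segment and time in solution cannot be told apart. With 1 library per condition no difference has a replicate check, no p-value is given, and all intervals cover counting error only.

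As background, ryanodine receptors open in response to cytosolic Ca2+ and give the local release events called Ca2+ sparks, which in arterial myocytes open Ca2+-activated K+ channels and oppose constriction. IP3 receptors release the same store when agonists of G protein-coupled receptors raise inositol trisphosphate. SERCA pumps return Ca2+ to the store, PMCA pumps extrude it at the cost of ATP, and the Na+/Ca2+ exchanger extrudes it in exchange for Na+.

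The libraries held 10480918 reads on genes in 5 mM K+ and 11289598 in 60 mM K+. Differences are given as log2(fold-change), 60 mM K+ over 5 mM K+, after TMM scaling (trimmed mean of M-values). Each has a 95% exact interval computed from the reads of that gene. Levels are compared between genes as the deposited FPKM (fragments per kilobase and per 1e6 reads) unless another quantity is named. The labelled tissue was checked against marker genes. Acta2 had 187183 and 199779 reads and Myh11 154041 and 148394, whereas Tagln, another smooth muscle marker, had only 314 and 387. Summed levels are given as CPM, which here are reads per 1e6 reads of the TMM-scaled library size. Summed over the list, smooth muscle markers held 38027 CPM in 5 mM K+ and 41937 in 60 mM K+. This is a log2(fold-change) of 0.14 that was -0.07 with total-count scaling. Among markers of other cells, endothelial markers held 3140 and 4265 CPM, with 5 of 6 higher in 60 mM K+. Fibroblast markers held 3821 and 3463, with 5 of 5 lower. Macrophage markers held 38.3 and 29.4, with 5 of 6 lower, and adipocyte markers 35.7 and 16.6, with 4 of 5 lower. Nerve and Schwann markers held 109 and 101 CPM, striated muscle markers 49.9 and 54.2 (a direction that total-count scaling turns), and lymphocyte markers 1.60 and 0.762. Snap25, Th, Myh7 and Myh4 had 0 reads in both libraries. Beside these counts by direction, 7362 of all 14829 genes with at least 10 reads were higher in 60 mM K+ and 7467 were lower. In tissue of this kind, fewer cells of a type and less RNA per cell cannot be told apart, and the part of these shifts in the results below was not tested.

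None of the 10 genes lay beyond a log2(fold-change) of 1 in either direction, the fold threshold of the study's methods, and 2 were past 0.5 on each side. Itpr1 and Slc8a1 were lower in 60 mM K+ than in 5 mM K+, and Itpr2 was higher. The fourth gene past 0.5 was Ryr3, for which the few reads leave the direction undetermined. Among all 14829 genes whose reads in the pair of libraries summed to 10 or more, 5.54% were above 1 and 5.86% below -1. Above 0.5 were 14.8% and below -0.5 were 15.9%, so that counts of 0, 0, 2 and 2 of 10 were near these background shares. This background includes genes with few reads, whose counting error is wider than that of the 10 genes other than Ryr3. The same limit holds for the percentages of genes with lower values given below. Shares among genes of like depth are not given here. With total-count scaling, 1 of the 10 was above 0.5 (Itpr2) and 3 were below -0.5 (Itpr1, Slc8a1 and Atp2b1), beside 9.14% and 26.7% of all genes. Of the 10 genes, 4 were above 0 and 6 below, beside 7362 and 7467 of all 14829 genes. The median over the 10 genes was -0.13, beside -0.0047 over all genes. With total-count scaling these medians were -0.34 and -0.21, and with the trend of longest transcripts removed the median over the 10 genes was 0.073.

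**Figure D1:**
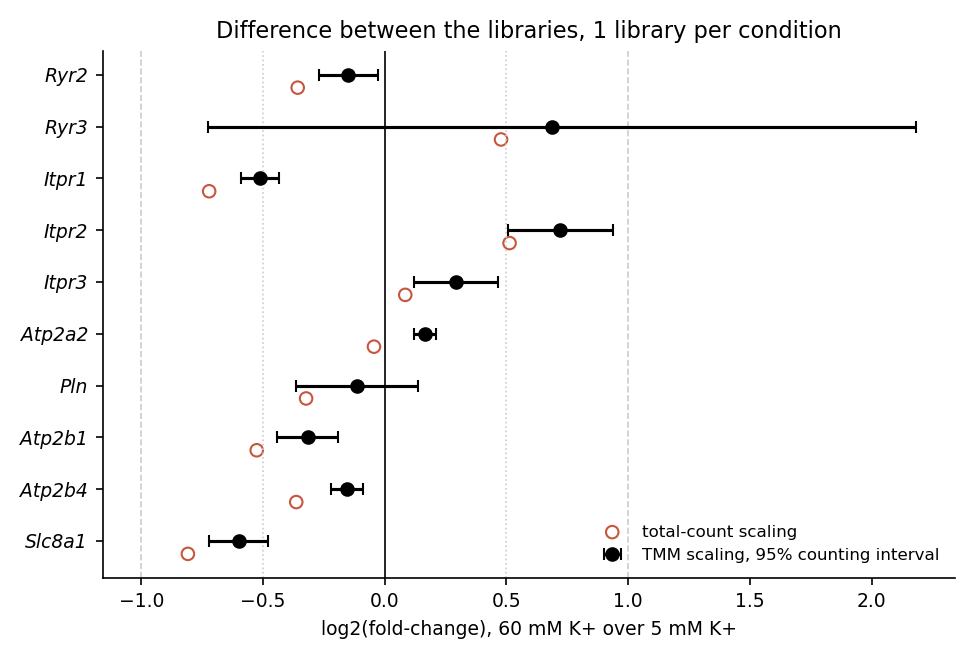
Log2(fold-change) of the 10 genes, 60 mM K+ over 5 mM K+, for 1 library per condition. Black points are TMM-scaled values with 95% counting intervals, open circles are values with total-count scaling, and vertical lines mark 0, 0.5 and 1 in both directions. Itpr1 (-0.51) and Slc8a1 (-0.60) sit at the left and Itpr2 (0.72) at the right, and the interval of Ryr3 spans -0.73 to 2.18.

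The IP3 receptor genes differed from each other in direction. Itpr1, which encodes the type 1 receptor and lies on chromosome 6 (mm9, 108163112 to 108501103), had 3506 reads in 5 mM K+ and 2291 in 60 mM K+, or 120 and 72.9 FPKM. Its log2(fold-change) was -0.51 (interval -0.59 to -0.44), which was lower than that of all but 15.5% of genes. Itpr2 lies on the same chromosome (146056821 to 146450745) and had 298 and 458 reads, or 9.85 and 14.1 FPKM. Its log2(fold-change) was 0.72 (interval 0.51 to 0.94), and 91.0% of genes had a lower value. Itpr3 (chromosome 17, 27194249 to 27259168) had 521 and 595 reads, with a log2(fold-change) of 0.29 (interval 0.12 to 0.47) that was 0.08 with total-count scaling.

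Because these are differences between genes of the same libraries, they can be stated without any scaling factor. The number of Itpr1 reads per Itpr2 read was 11.8 in 5 mM K+ and 5.00 in 60 mM K+, a ratio of 0.425 between the libraries (interval 0.363 to 0.498). Per Itpr3 read, Itpr1 had 6.73 and 3.85 reads, a ratio of 0.572 (0.502 to 0.652). Itpr2 was also higher relative to Itpr3, with a ratio of 1.35 (1.11 to 1.63). As a share of the summed FPKM of the IP3 receptors, Itpr1 made up 85.4% in 5 mM K+ and 74.2% in 60 mM K+. Itpr2 went from 7.0% to 14.3% and Itpr3 from 7.57% to 11.5%. Itpr1 was thus the most abundant subtype in both libraries, while the order of Itpr2 and Itpr3 by FPKM was reversed between them, from 9.85 and 10.6 to 14.1 and 11.3 FPKM. That order depends on the gene length used: per kilobase of the longest annotated transcript, Itpr3 (5.53 and 5.86) was above Itpr2 (2.43 and 3.47) in both libraries.

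**Figure D2:**
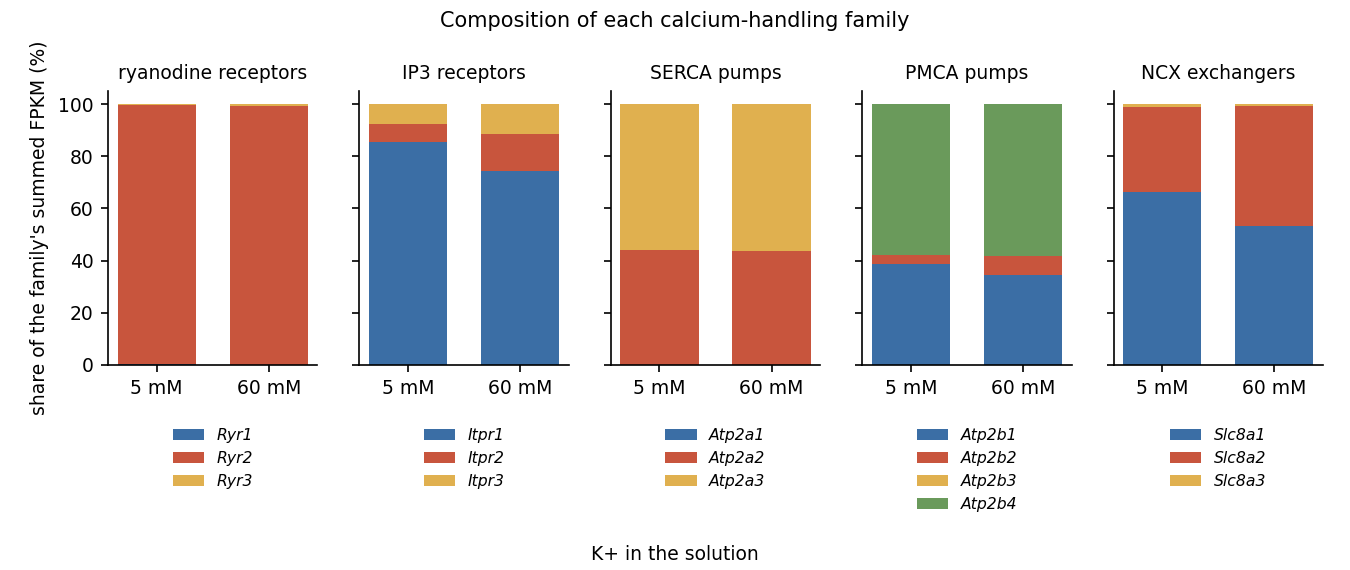
Share of each gene in the summed FPKM of its family (y axis, percent) in the 5 mM K+ and 60 mM K+ libraries, 1 stacked bar per library. Itpr1 goes from 85.4% to 74.2% of the IP3 receptors and Slc8a1 from 66.2% to 53.4% of the exchangers, while the SERCA bars are nearly alike at 44.1% and 43.5% for Atp2a2.

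Among ryanodine receptors, Ryr2 held nearly all of the summed FPKM in both libraries. Ryr2 (chromosome 13, 11645370 to 12199212), the subtype also used by cardiac muscle, had 1212 and 1019 reads, or 27.7 and 21.6 FPKM. Its log2(fold-change) was -0.15 (interval -0.27 to -0.03), but -0.36 with total-count scaling and 0.13 with the trend over longest transcripts, described below, removed, so that its direction rests on the setting. It made up 99.4% and 99.3% of the summed FPKM of the family. Ryr3 (chromosome 2, 112471512 to 113057253) had 8 and 12 reads. Its log2(fold-change) of 0.69 has an interval of -0.73 to 2.18, so that a difference in either direction was not detectable at this depth. Ryr3 also shares exonic sequence with Aven on the opposite strand, which had 140 and 171 reads, and reads of this overlap may be split wrongly, since no source says that strand was used in counting. Ryr1, the skeletal muscle subtype, had 4 reads in 5 mM K+ and 0 in 60 mM K+, and a count of 0 allows up to 0.286 CPM there. Relative to Itpr1, Ryr2 was higher in 60 mM K+: there were 0.346 Ryr2 reads per Itpr1 read in 5 mM K+ and 0.445 in 60 mM K+, a ratio of 1.29 (interval 1.16 to 1.42).

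The SERCA pump gene Atp2a2 was the most abundant of the 10 genes by FPKM. Atp2a2 (chromosome 5, 122903531 to 122952183) had 7925 and 8279 reads, or 245 and 237 FPKM. Its log2(fold-change) was 0.16 (interval 0.12 to 0.21), and with total-count scaling it was -0.04, so that its direction rests on the scaling. Atp2a3, which encodes SERCA3, was above Atp2a2 in both libraries, with 310 and 308 FPKM, or 55.9% and 56.5% of the summed FPKM of the SERCA genes. Atp2a1, the SERCA of fast skeletal muscle, had 5 reads and 0 reads. Pln (chromosome 10, 53057492 to 53065805), whose product inhibits SERCA until it is phosphorylated, had 288 and 248 reads, or 20.7 and 16.5 FPKM. Its log2(fold-change) was -0.11, with an interval from -0.37 to 0.14 that includes 0, and -0.32 with total-count scaling. The number of Pln reads for each Atp2a2 read was 0.0363 in 5 mM K+ and 0.0300 in 60 mM K+, a ratio of 0.824 (interval 0.691 to 0.983).

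Of the genes of plasma membrane pumps, Atp2b1 was lower in 60 mM K+, whereas the direction of Atp2b4 rested on the setting. Atp2b1 (PMCA1; chromosome 10, 98377786 to 98488777), the form found in most tissues, had 1227 and 918 reads, or 54.7 and 38.0 FPKM, with a log2(fold-change) of -0.32 (interval -0.44 to -0.19). This was -0.53 with total-count scaling and -0.17 with the trend over longest transcripts, described below, removed. Atp2b4 (PMCA4; chromosome 1, 135599255 to 135697618) had 4013 and 3360 reads, or 82.1 and 63.9 FPKM, with a log2(fold-change) of -0.15 (interval -0.22 to -0.09), and it was -0.36 and 0.02 under these settings. Atp2b1 was lower relative to Atp2b4 by a ratio of 0.894 (interval 0.810 to 0.986). Atp2b4 made up 57.9% and 58.1% of the summed FPKM of the PMCA genes. Atp2b2 differed the other way, with 250 reads in 5 mM K+ and 437 in 60 mM K+ and a log2(fold-change) of 0.91 (interval 0.68 to 1.14), and its share of the family went from 3.52% to 7.36%. Atp2b3 had 0 reads in both libraries.

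Slc8a1 showed the lowest log2(fold-change) of the 10 genes. It encodes the exchanger NCX1 and lies on chromosome 17 (81785359 to 82048947), where 1447 reads were counted in the control library and 890 in the other, or 25.2 and 14.4 FPKM. The log2(fold-change) was -0.60 (interval -0.72 to -0.48), and 12.7% of all genes had a lower value. Slc8a2, which encodes NCX2, had 615 and 658 reads, a log2(fold-change) of 0.20 that was -0.01 with total-count scaling. Its share of the summed FPKM of the exchangers was 32.6% in 5 mM K+ and 45.8% in 60 mM K+, and that of Slc8a1 was 66.2% and 53.4%. Slc8a3 had 15 and 7 reads. Compared with the other routes of Ca2+ removal, Slc8a1 reads per Atp2a2 read went from 0.183 to 0.108, a ratio of 0.589 (interval 0.538 to 0.644), and Slc8a1 reads per Atp2b1 read from 1.18 to 0.969, a ratio of 0.822 (0.728 to 0.928).

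**Figure D3:**
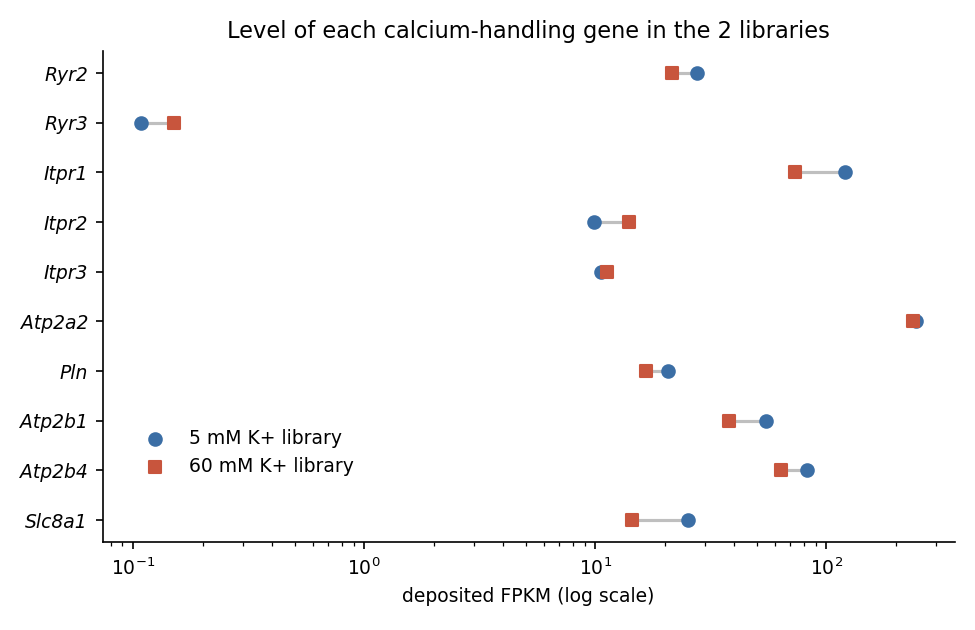
Deposited FPKM (x axis, log scale) of the 10 genes in the 5 mM K+ library (circles) and the 60 mM K+ library (squares), with a line joining the values of a gene. Atp2a2 lies highest at 245 and 237, Ryr3 lowest at 0.109 and 0.151. Pln and Slc8a1, and Itpr2 and Itpr3, change order between the libraries.

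By FPKM in 5 mM K+ the order of levels was Atp2a2, Itpr1, Atp2b4, Atp2b1, Ryr2, Slc8a1, Pln, Itpr3, Itpr2 and Ryr3. In 60 mM K+ Pln stood above Slc8a1 and Itpr2 above Itpr3. The gene lengths behind the deposited FPKM can be recovered by dividing counts by FPKM, and for several of these genes they were much shorter than the longest annotated transcript. The length was 4179 bp for Ryr2 and 2784 bp for Itpr1, whereas their longest transcripts in GENCODE vM1 have 16813 bp and 9848 bp. The recovered length of Slc8a1, 5471 bp, was longer than its longest transcript in that annotation, 2913 bp. Per kilobase of longest transcript, Atp2a2 was still first and Ryr3 last in both libraries, but Ryr2 had a lower place, below Pln in both, and Slc8a1 a higher one, above Itpr1. The differences between libraries do not depend on these lengths, since the same length was used for both.

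Length did move with the difference between libraries across all genes. The median log2(fold-change) was 0.23 for 937 genes with a longest transcript under 1000 bp and -0.25 for 252 genes of 10000 bp or more. For the 360 genes from 8000 to 10000 bp, the bin that holds Itpr1, Itpr3 and Atp2b4, it was -0.16, and 21.4% of them were below -0.5 and 8.06% above 0.5. Itpr1 at -0.51 was below this median, Atp2b4 at -0.15 was close to it, and Itpr3 at 0.29 was above it. Ryr2 at -0.15 and Itpr2 at 0.72 were both above the median of -0.25 in their bin. With the trend over longest transcripts removed, Itpr1 was at -0.32, Slc8a1 at -0.60, Itpr2 at 0.94 and Itpr3 at 0.48, while Ryr2 changed sign to 0.13 and Atp2b4 to 0.02. With the trend over the lengths behind the FPKM removed in its place, Itpr1 was at -0.41 and Slc8a1 at -0.44, so that neither stayed past -0.5. The part of this trend in the lower values of Itpr1, Slc8a1, Ryr2, Atp2b1 and Atp2b4 was not tested. For Slc8a1 the longest annotated transcript is shorter than the recovered length, so that its place in this trend is uncertain.

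**Figure D4:**
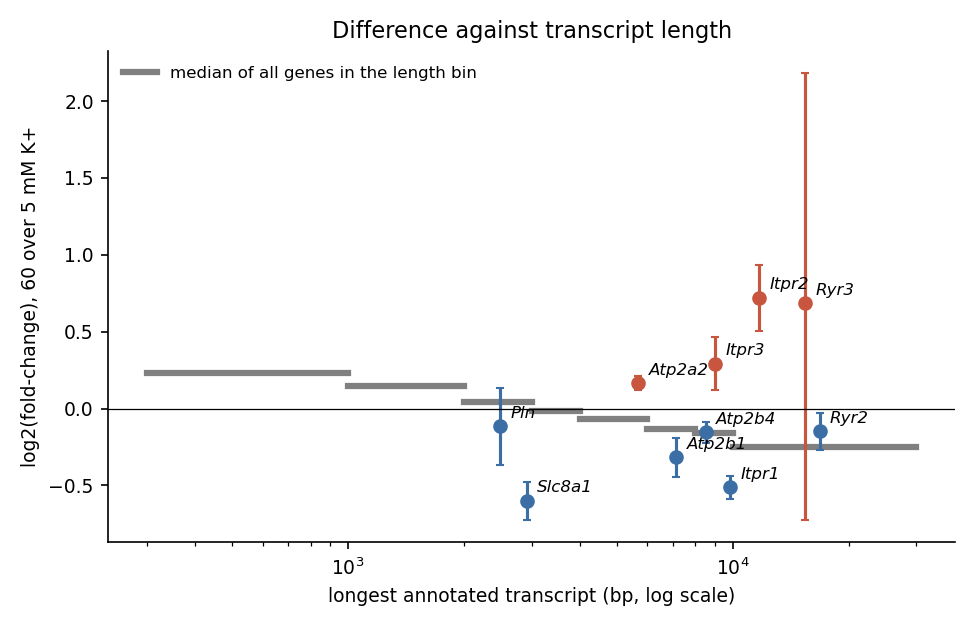
Log2(fold-change), 60 mM K+ over 5 mM K+ (y axis), against the longest transcript annotated in GENCODE vM1 (x axis, bp, log scale), with 95% counting intervals for the 10 genes (blue below 0, red above 0). Gray bars are medians of all genes with at least 10 reads in each length bin, and they descend from 0.23 to -0.25 with length. Itpr1 and Itpr2, of 9848 bp and 11699 bp, lie on opposite sides of the bars.

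Promoter sequences were examined because the study follows Ca2+ signals to the transcription factor CREB, which binds the cAMP response element (CRE). RefSeq windows of GRCm38.p6, from 250 bases before to 50 after a transcription start, were at hand for 7 of the 10 genes and not for Ryr3, Itpr1 and Atp2a2. The full CRE, TGACGTCA, was in 0 of 8 windows of these genes, beside 1.79% of 32851 windows of all genes. The shorter motif TGACG, searched on both strands (as TGACG and CGTCA), was in 2 of 8 windows, beside 20.8% of all windows. Both matches lie just after the start. They are shown here on the strand of the gene with the motif in capitals, that of Atp2b1 from chr10:98914635-98914663 and that of Atp2b4 from chr1:133753698-133753717.
Atp2b1: ccccgcgggccgCGTCAcgtgaccgcgcc
Atp2b4: tcctctttttccTGACGcca

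The 250 bases before the start are shown for Itpr2 (chr6:146502224-146502473, minus strand) and Slc8a1 (chr17:81738388-81738637, minus strand), since these genes with a window were past 0.5 in opposite directions. Capitals mark CCAAT boxes (CCAAT or ATTGG) and GC boxes (GGGCGG or CCGCCC), which were in 33.8% and 32.7% of all such 250-base windows. The Itpr2 sequence has 2 CCAAT and 4 GC box matches and 74.4% G and C. The Slc8a1 sequence has 0 matches of either kind and 50.4% G and C. The windows of Atp2b1, at a log2(fold-change) of -0.32, have 4 and 3 GC box matches, 0 CCAAT and 78.4% and 80.8% G and C. That of Itpr3, at 0.29, has 1 GC box match, 0 CCAAT matches and 72% G and C. Ryr2 and Atp2b4, both at -0.15, have 0 matches of either kind and 63.2% and 45.6% G and C. Pln, at -0.11, has 1 CCAAT match, 0 GC box matches and 32.8% G and C. A relation between these matches and the direction of the difference was not tested. A match describes these letters and is not a shown binding site.
Itpr2: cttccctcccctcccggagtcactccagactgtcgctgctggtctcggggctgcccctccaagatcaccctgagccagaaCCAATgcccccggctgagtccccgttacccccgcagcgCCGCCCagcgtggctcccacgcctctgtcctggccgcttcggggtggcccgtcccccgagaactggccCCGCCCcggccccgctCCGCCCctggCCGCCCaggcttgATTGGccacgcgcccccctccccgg
Slc8a1: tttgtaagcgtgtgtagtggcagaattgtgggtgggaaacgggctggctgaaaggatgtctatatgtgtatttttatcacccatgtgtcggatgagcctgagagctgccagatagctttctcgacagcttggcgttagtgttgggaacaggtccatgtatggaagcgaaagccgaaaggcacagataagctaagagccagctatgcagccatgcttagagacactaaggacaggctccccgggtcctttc

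The partners of these channels and pumps were described from 6 lists of 82 genes, of which 80 were in the files and 68 had at least 10 reads. Itprip and Strit1 were not analysed here. Of the 68 genes, 1 was above a log2(fold-change) of 1 and 0 were below -1, beside 5.54% and 5.86% of all genes. Above 0.5 were 7 and below -0.5 were 6, beside 14.8% and 15.9% of all genes, and with total-count scaling these counts were 3 and 10, beside 9.14% and 26.7%. The median was 0.05. The same shares of all genes are the background of the counts in each list below.

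Genes that make or remove the ligand of IP3 receptors held the largest value. Itpkc, which encodes a kinase that phosphorylates IP3, had 97 and 242 reads, a log2(fold-change) of 1.42 (interval 1.07 to 1.78). Itpkb, a gene of the same kinase family, had 914 and 1426 reads and a value of 0.74 (0.62 to 0.86). Plcd1, which encodes a phospholipase C that makes IP3, was at 0.68 (0.56 to 0.79), or 0.47 with total-count scaling. The more abundant members of this list differed less: Plcb4 (91.6 and 80.9 FPKM) was at 0.03 (-0.18 with total-count scaling), Plcb3 (82.3 and 61.2 FPKM) at -0.22, and Inpp5a, an IP3 phosphatase with 158 and 163 FPKM, at 0.25. Over 13 genes of the list with TMM scaling, 3 were above 0.5, 0 were below -0.5 and the median was 0.03 (-0.18 with total-count scaling).

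Among partners of the release channels, the junctophilin gene Jph2, whose product holds the SR close to the plasma membrane, had 4931 and 7216 reads, a log2(fold-change) of 0.65 (interval 0.60 to 0.70). Jph2 was at 0.44 with total-count scaling. With TMM scaling it was the only one of 20 genes above 0.5, and 4 were below -0.5, beside 14.8% and 15.9% of all genes. Of the 4, Rnf170 was at -0.84 (-1.27 to -0.41) and Erlin1 at -0.62 (-1.04 to -0.22), both of which encode proteins that take part in the degradation of IP3 receptors. Another of the 4 had only 9 and 5 reads and an interval that includes 0. Fkbp1a, whose product binds ryanodine receptors, was the most abundant at 400 and 410 FPKM, with a log2(fold-change) of 0.25. Tmem38b, the gene of an SR K+ channel, had 202 and 175 FPKM and a log2(fold-change) of 0.00. The median of this list was -0.06.

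Of the partners of the pumps, Bsg and Nptn, whose products are subunits of PMCA pumps, were at 0.40 (interval 0.33 to 0.47) and 0.31 (0.24 to 0.37). Calu, which encodes a Ca2+-binding protein of the SR lumen, had 359 and 340 FPKM and was at 0.13, or -0.08 with total-count scaling. Sln, the gene of the SERCA inhibitor sarcolipin, had 49 and 27 reads and was at -0.76 (-1.49 to -0.05). Of the 6 genes, 0 were above 0.5 and 1 was below -0.5, and the median was -0.06.

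With TMM scaling, the genes of Ca2+-binding proteins of the SR and endoplasmic reticulum were higher in 60 mM K+ in 8 of 9 cases. This compares with 7362 of all 14829 genes. With total-count scaling only Calr, Rcn3 and Pdia3 were above 0. The median of this list was 0.14 with TMM scaling and -0.07 with total-count scaling. Calr, the gene of the luminal buffer calreticulin, had 3829 and 5602 reads, a log2(fold-change) of 0.65 (interval 0.59 to 0.71), and was the only one above 0.5. With total-count scaling Calr was at 0.44. Rcn3 was at 0.31 and Pdia3 at 0.30. None of the 11 genes of mitochondrial Ca2+ uptake was past 0.5 in either direction with TMM scaling, beside 14.8% and 15.9% of all genes, and Mcu was below -0.5 with total-count scaling (-0.63). Their median was -0.01, Vdac1 was at 0.41, Smdt1 at 0.34, Vdac2 at 0.20 (-0.01 with total-count scaling) and Mcu, the gene of the uniporter pore, at -0.42 (-0.72 to -0.13).

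Further genes of the transporter families included Atp2c1, a pump of the Golgi apparatus, which was at -0.32 (interval -0.48 to -0.15), and Slc8b1, the mitochondrial exchanger, at -0.09 (-0.31 to 0.13). Of 9 such genes with enough reads, 2 were above 0.5 and 1 was below -0.5, with a median of 0.20 that was -0.01 with total-count scaling. Except for Atp2b2, the genes past 0.5 had few reads and intervals that include 0, which leaves their direction undetermined.

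**Figure D5:**
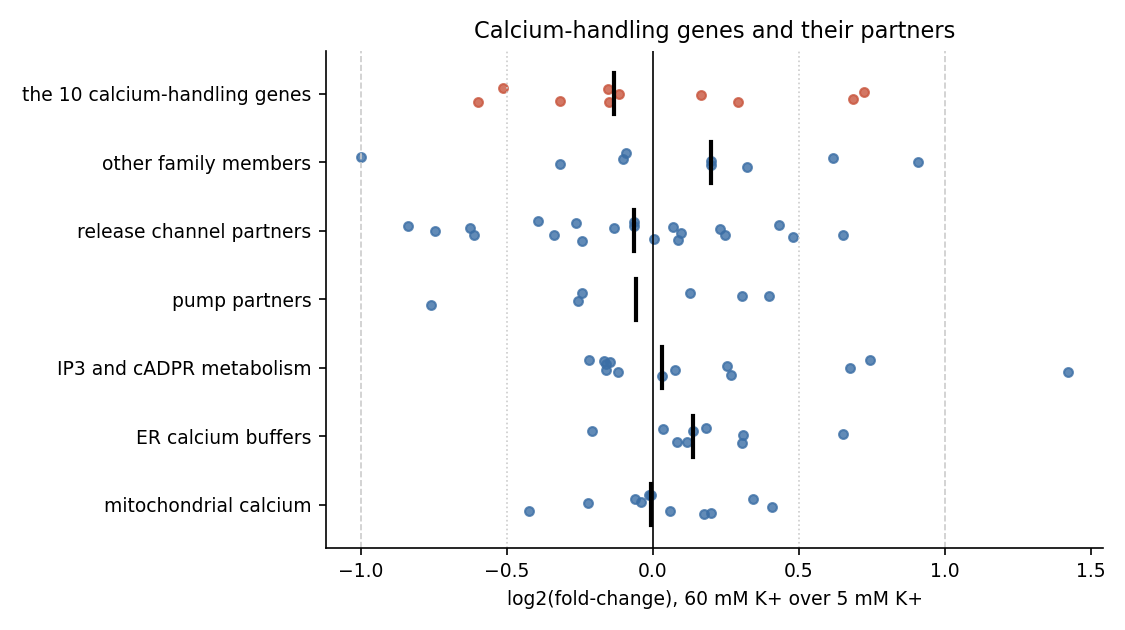
Log2(fold-change), 60 mM K+ over 5 mM K+ (x axis), of the 10 genes (red) and of the genes in 6 lists of partners (blue), 1 point per gene with at least 10 reads, spread vertically at random for legibility. Black bars are medians, from -0.13 for the 10 genes to 0.20 for other family members, and the point at the far right is Itpkc at 1.42.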

How the data were processed

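RNA-seq was performed on 2 libraries of mouse mesenteric artery. The authors aligned the reads to mm9 with TopHat2 (version 2.0.12 in the submitters' processing notes, which also name HTSeq 0.6.1, edgeR 3.0.8, mm8 and mm9) and deposited read counts per gene and FPKM values. Annotation and strand setting: not given in the sources used here. Of the listed identifiers, 32601 are in GENCODE vM1, the mm9 annotation used here for symbols, positions and lengths, and 22972 are not, so that the authors' annotation was another. Promoter windows are from RefSeq on GRCm38.p6.

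edgeR 4.0.16 (R 4.3.3) gave TMM factors from the deposited counts, and SciPy 1.17.1 gave the intervals. The factors were 1.07 for 5 mM K+ and 0.930 for 60 mM K+. Counts of 0 were set to 0.5 in log2(fold-change). A count of 0 allows up to 3 reads. Intervals of a log2(fold-change) are Clopper-Pearson, and those of a ratio between 2 genes are exact conditional intervals of the odds ratio. PCR reads without molecular identifiers are not independent molecules. The intervals were tested on simulated data that held counting error only, so that the test does not cover PCR copies or variation between mice or libraries. edgeR's quasi-likelihood test could not be run without replicates.

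Other settings tried were scaling by total counts, by upper quartiles or by medians of ratios (DESeq2 1.42.0), FPKM with pseudocounts of 0.1 and 1, other minimum counts, and removal of the trend with length by lowess (statsmodels 0.14.6, span 0.3). The use of longest transcripts was chosen after seeing the data. The 10 genes and the lists were chosen with earlier results of these data known. Named in each list are the 3 genes of highest mean FPKM and the 3 of largest absolute log2(fold-change) with at least 50 reads. Genes of the same family as the 10, Aven and markers are named beside them. Figures were drawn with matplotlib 3.10.9.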

Additional observations from a re-analysis of the deposited data

How the results depend on the processing

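No paired analysis was possible because there was only 1 library on each side, and likewise no replicate could be left out. Total-count scaling lowered every log2(fold-change) by 0.21. The median of the 10 genes, -0.13, became -0.34 with total counts (-0.21 over all genes), -0.34 and -0.32 with FPKM and pseudocounts of 0.1 and 1, and 0.073 with the trend over longest transcripts removed. The number of genes above 0.5, 2 of 10, was 1 with total counts, with FPKM and a pseudocount of 0.1, with at least 50 reads or with the nearest end of the interval, and 0 with FPKM and a pseudocount of 1. Of all genes, 14.8% were above 0.5 with TMM scaling and 9.14% with total counts. With FPKM and pseudocounts of 0.1 and 1 these shares were 8.56% and 5.75%. The number below -0.5, also 2, was 0 with the trend over the authors' lengths removed or with the nearest end of the interval, and 1 with the trend over longest transcripts removed. This number was 3 with total counts and with FPKM and pseudocounts of 0.1 and 1, beside 26.7%, 25.3% and 16.0% of all genes. Below -0.5 were 15.9% of all genes with TMM scaling, 15.4% with the trend over the authors' lengths removed and 13.9% with that over longest transcripts removed. Shares of all genes for the nearest end of the interval and for at least 50 reads are not given here. Counts past 1 were 0 under each of these settings. With total counts, the partner genes above 0.5 went from 7 to 3, those below -0.5 from 6 to 10 and those below -1 from 0 to 2, beside 9.14%, 26.7% and 8.67% of all genes under that scaling. Ratios between genes were the same from FPKM, which follows from the use of the same gene length in both libraries and is no further check. Itpr1, Slc8a1 and Itpr2 kept their direction under every setting, and so did Atp2b1, Itpr3, Pln and Ryr3. Since the counting intervals of Pln and Ryr3 include 0, a kept direction does not settle it. Ryr2, Atp2a2 and Atp2b4 changed sign under some setting. For the single genes, 34 values lay outside their counting interval under a setting and 36 within it, and upper-quartile and median-of-ratios scaling left all 10 within it.

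Shares of a family depended on how reads were divided by length. From reads alone, Itpr1 made up 81.1% and 68.5% in the 5 and 60 mM K+ libraries, Atp2a2 41.7% and 41.1%, Atp2b4 73.1% and 71.3% and Slc8a1 69.7% and 57.2%. Per kilobase of longest transcript, Itpr1 made up 81.0% and 68.8%, Atp2a2 36.7% and 36.2%, Atp2b4 69.6% and 67.7% and Slc8a1 77.6% and 66.8%. Where a value moved, the construction of the setting shows the cause for scaling and length, and otherwise the cause was not tested.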
